A study of Mus musculus with 11 samples.

Results

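The genes described here are the 4 Notch receptors, Notch1, Notch2, Notch3 and Notch4, and their 5 canonical ligands, the Delta-like genes Dll1, Dll3 and Dll4 and the Jagged genes Jag1 and Jag2. They were taken by symbol and not by a cut on their values, although earlier results of these data were known. All 9 were found once among the 37224 gene rows of the deposited table. The mRNA came from T cell acute lymphoblastic leukaemia (T-ALL) in mice. Each tumour was started from cKit-positive blood progenitors that had been infected with a retrovirus carrying Notch1-IC, the active intracellular form of Notch1, and was grown after intravenous transplantation. Every group therefore carries Notch1-IC. The knockout progenitors were Utx-/Y and the wild-type progenitors Utx+/+ or Utx+/Y, on the strain background given as C57/BL6. Utx (Kdm6a) is an X-linked enzyme that takes methyl groups off lysine 27 of histone H3. The labels list 11 samples, 5 knockout (2 from bone marrow, 3 from spleen) and 6 wild-type (2 from bone marrow, 4 from spleen), and 1 knockout and 2 wild-type samples among them are repeat runs. Not given in the sources used here were age, recipient strain and the number of animals per sample.

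The table holds 1 pooled count per gene and genotype, so no value below has a spread over animals, marrow cannot be told from spleen, and reads from every tumour of a pool cannot be told from reads of a single tumour. The knockout pool totalled 106445530 counts and the wild-type pool 108015222. Levels are given as CPM, the count scaled by the total of its pool, and a ratio is the log2 of the knockout over the wild-type CPM with 0.5 counts added to each. Intervals are exact 95% Clopper-Pearson or Poisson intervals and cover counting error only. Differences between the ratios of members are an exception, since they were taken without added counts and have 95% normal intervals from the counts. A gene is called higher or lower where its combined count is at least 100, the ratio is at least 2-fold and the interval leaves out 0. Where values are joined by the word against, that of the knockout pool comes first. Kdm6a, the deleted gene, stood at 58.3 CPM with wild-type Utx and at 10.5 CPM without (log2 ratio -2.48, -2.57 to -2.38). Markers of sex differed between the pools as well, since Xist was at 0.705 against 203 CPM and the Y-linked gene Ddx3y at 65.4 against 10.4 CPM, so genotype and sex of the donors cannot be told apart here.

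Notch receptors are single-pass membrane proteins that are cut when a ligand on a neighbouring cell pulls on them. An ADAM protease makes the outer cut and gamma-secretase the inner cut, and the released intracellular part enters the nucleus, where it joins RBPJ and a Mastermind coactivator to switch on target genes. Notch1-IC is already in the released form and needs no ligand. In the thymus Dll4 on epithelial cells drives T lineage choice through Notch1, and Notch3 is itself a known target of NOTCH1 in T cell leukaemia. Notch2 is best known in marginal zone B cells and some dendritic cells, Notch4 in endothelium, and Jag1 in stroma, endothelium and some haematopoietic cells.

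Upstream sequence is shown first for 3 of the genes, because they stand for the levels met below: Jag1, the ligand with the most reads, Notch3, the most abundant receptor that is not on the retrovirus, and Notch4, the receptor with the fewest reads. Sequences are from RefSeq promoters on GRCm38.p6, of the 250 bases before each gene's start, less any base in an exon of the GENCODE M21 annotation, and are written 5′ to 3′ along the gene. Capitals mark CpG dinucleotides. Jag1 is from chr2:137116645-137116770 on the minus strand, Notch3 from chr17:32166891-32167140 on the minus strand and Notch4 from chr17:34564045-34564267 on the plus strand.
Jag1: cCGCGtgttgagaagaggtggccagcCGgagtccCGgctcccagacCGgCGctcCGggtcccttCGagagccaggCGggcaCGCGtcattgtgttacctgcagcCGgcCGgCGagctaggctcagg
Notch3: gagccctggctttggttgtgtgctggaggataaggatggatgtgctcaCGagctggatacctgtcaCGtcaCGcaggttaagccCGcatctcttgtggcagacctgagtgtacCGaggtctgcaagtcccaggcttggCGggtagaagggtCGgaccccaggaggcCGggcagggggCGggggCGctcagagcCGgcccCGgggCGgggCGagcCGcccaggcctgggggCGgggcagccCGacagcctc
Notch4: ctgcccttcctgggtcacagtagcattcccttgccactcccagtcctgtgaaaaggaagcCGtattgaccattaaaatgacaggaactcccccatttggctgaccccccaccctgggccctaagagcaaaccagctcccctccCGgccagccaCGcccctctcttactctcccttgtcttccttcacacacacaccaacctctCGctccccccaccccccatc
The printed stretches hold 14, 17 and 4 CpG. Over the full 250 bases, the median of all 32851 RefSeq promoters was 6 CpG. Jag1 had 20, Notch1 16, Notch2 34, Notch3 17, Notch4 4, Dll3 10 and Dll4 14, while the Dll1 promoters had 21 and 13. Jag2 was the richest with 54 and a GC content of 87.2%. Notch4 was thus the only member under the median. The core of the RBPJ binding motif, TGGGAA on either strand, was in none of the 10 promoter windows of the 9 genes, and in 21.6% of all promoters. That says only that these letters are not in these windows.

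Across the family the Jagged ligands differed between the pools by more than 2-fold and the receptors did not. Enough reads, a combined count of 100, were reached by 6 of the 9 genes. Among these Jag1 was higher in the knockout pool, Jag2 was lower and the 4 receptors were neither. Over all genes, 16.6% of the 13833 with enough counts were called, 11.2% higher and 5.36% lower. The 3 Delta-like ligands had combined counts of 14 to 20 and were too low to be called. The median log2 ratio of the 7 members with a combined count of at least 20 was -0.12, beside -0.07 for all 17186 genes with that count. In the authors' deposited table, 6 of the 9 had an adjusted p under 0.05 from the DEGseq test on the pools, beside 67.8% of the 20904 genes tested there. It is a test between the reads of these pools, not between the genotypes.

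**Figure D1:**
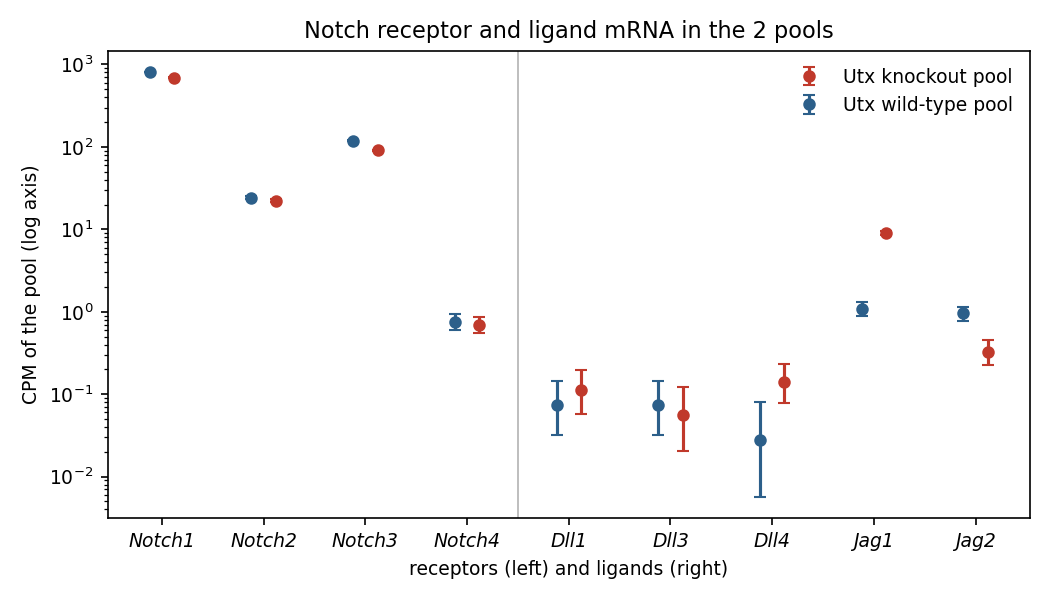
CPM of each receptor (left) and ligand (right) in the wild-type pool (blue) and the knockout pool (red), on a log axis, with exact 95% Poisson intervals of the counts. Notch1 is the highest in both pools, the Delta-like ligands lie under 1 CPM, and the points of Jag1 and Jag2 separate in opposite directions.

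Notch1 (ENSMUSG00000026923, chromosome 2, 26457903 to 26516663 on the minus strand; coordinates here are GRCm38 from GENCODE M21, not the mm9 build of the reads) was the most abundant member. The wild-type pool held 86907 of its counts and the knockout pool 73508, which is 805 and 691 CPM. Reads of the cellular gene and of the retroviral insert are summed in this row, so the level of the cellular gene is not known. The log2 ratio was -0.22 (-0.23 to -0.21), and the authors' deposited table lists an adjusted p of 9.73e-204. The interval leaves out 0 because of depth, while the size, 0.858-fold, stays far under the 2-fold minimum. Ranked by ratio from the highest, Notch1 was number 8634 of 13833 genes. Per kilobase of exon, Notch1 exceeded 94.6% of 13611 genes with wild-type Utx and 94.5% without.

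Transcripts annotated on the opposite strand at the Notch1 locus differed more than Notch1 itself. 0610009E02Rik, a processed transcript that shares 1068 exon bases with Notch1, gave 17825 counts with wild-type Utx and 5531 without. Its log2 ratio was -1.67 (-1.71 to -1.62). Gm13568, which shares 414 exon bases, gave 6736 and 1878 counts, and its log2 ratio was -1.82 (-1.90 to -1.75). Both were thus called lower. Reads in the shared bases cannot be assigned to either gene, since the strand setting was not given in the sources used here. These genes were named after the annotation was searched for overlaps with members, and no other overlapping gene in the table had more than 1 count in a pool.

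Notch3 (ENSMUSG00000038146, chromosome 17, 32120820 to 32166852 on the minus strand) was the second most abundant receptor. Its counts were 12779 with wild-type Utx and 9681 without, or 118 and 90.9 CPM. The knockout pool was lower by a log2 ratio of -0.38 (-0.42 to -0.34), or 0.769-fold, and the authors' deposited table lists an adjusted p of 1.16e-84. Unlike those of Notch1, these reads have no source in the retrovirus as the labels describe it. The ratio of Notch3 lay below that of Notch1, with Notch1 minus Notch3 at 0.16 (0.12 to 0.20) on the log2 scale. Per kilobase, the Notch1 row, any insert reads included, was 3.87 times Notch3 with wild-type Utx (3.79 to 3.94) and 4.32 times without (4.22 to 4.41).

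Notch2 (ENSMUSG00000027878, chromosome 3, 98013527 to 98150361 on the plus strand) had 2613 wild-type and 2370 knockout counts, or 24.2 and 22.3 CPM. Its log2 ratio of -0.12 (-0.20 to -0.04) was close to the median of all genes, with 0.00584 as its adjusted p in the authors' deposited table. With TMM scaling the ratio of Notch2 was -0.04, so its direction rests on a small margin. Notch4 (ENSMUSG00000015468, chromosome 17, 34564268 to 34588503 on the plus strand) had 81 wild-type and 74 knockout counts, or 0.75 and 0.695 CPM. The pools did not differ beyond counting error, at -0.11 (-0.58 to 0.36), and the authors' deposited table gives 0.696 as adjusted p. An interval of this width holds changes of up to 1.29-fold higher and 1.5-fold lower. Per kilobase Notch4 exceeded 3.17% of genes with wild-type Utx and 1.4% without.

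Summed over the 4 receptors, the wild-type pool held 102380 counts and the knockout pool 85633, or 948 and 804 CPM. The log2 ratio of the sum was -0.24 (-0.25 to -0.22). Without Notch1, the sum of Notch2, Notch3 and Notch4 was 114 against 143 CPM, a log2 ratio of -0.33 (-0.37 to -0.30). Per kilobase of exon, the Notch1 row made up 76.9% of the receptor sum with wild-type Utx and 78.4% without. Any reads of the retroviral insert count in that row, over its full exon length. The shares are therefore not those of the cellular receptors alone. The share of Notch3 was 19.9% and 18.2%, that of Notch2 3.05% and 3.33%, and that of Notch4 0.127% and 0.139%. The make-up of this sum, any insert reads included, thus stayed within 2 percentage points between the pools.

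**Figure D2:**
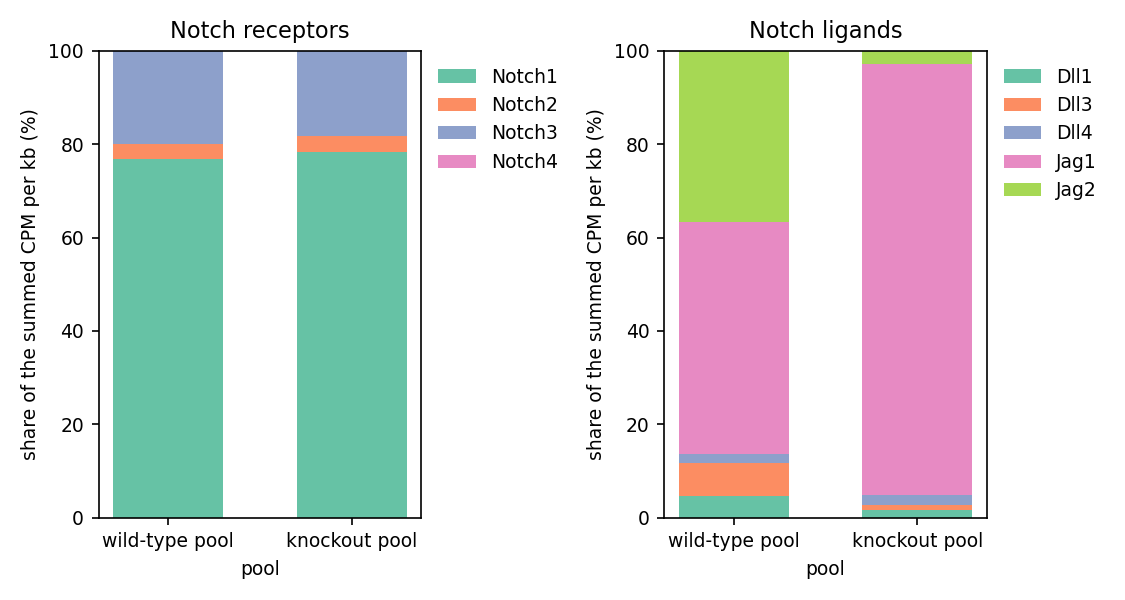
Share of the summed CPM per kilobase of exon, in percent, taken by each receptor (left panel) and each ligand (right panel) in the wild-type and the knockout pool. The Notch1 part holds any reads of the retroviral insert. Notch4, at 0.139% or less, is too thin to be seen, the receptor bars look alike, and the Jag1 part of the ligand bar goes from 49.8% to 92.3%.

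Jag1 (ENSMUSG00000027276, chromosome 2, 137081456 to 137116644 on the minus strand) carried the largest difference of the 9 genes. The wild-type pool gave 117 counts and the knockout pool 964. In CPM this was 1.08 and 9.06, so the knockout pool was 8.33-fold higher (6.89 to 10.2), a log2 ratio of 3.06 (2.79 to 3.35). In the authors' deposited table its adjusted p was 1.94e-165. Ranked by ratio from the highest, Jag1 was number 231 of the 13833 genes. Per kilobase its level exceeded 7.16% of genes with wild-type Utx and 30.2% without, so Jag1 was in the lower part of the range in both pools.

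Jag2 (ENSMUSG00000002799, chromosome 12, 112907819 to 112929776 on the minus strand), the other Jagged ligand, was lower in the knockout pool. It gave 103 wild-type and 35 knockout counts, or 0.954 and 0.329 CPM. The log2 ratio was -1.52 (-2.13 to -0.97), which is 2.87-fold lower (1.96 to 4.39), and the authors' deposited table lists 1.40e-08 as adjusted p. The lower end of that range is under 2-fold, and the combined count of 138 is near the minimum of 100, which Jag2 reached through the wild-type pool. Between the Jagged genes, the log2 ratios lay 4.60 apart (3.98 to 5.22). Per kilobase of exon, Jag1 was 1.36 times Jag2 with wild-type Utx (1.03 to 1.79) and 32.9 times without (23.5 to 47.6).

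Delta-like mRNA was scarce in both pools. Dll4 (ENSMUSG00000027314, chromosome 2, 119325784 to 119335962 on the plus strand) gave 3 wild-type and 15 knockout counts, or 0.0278 and 0.141 CPM. Its log2 ratio was 2.17, with an interval from 0.52 to 4.77 that leaves out 0 but spans 1.43-fold to 27.3-fold. With 5 counts added in place of 0.5 the log2 ratio of Dll4 was 1.34. Its adjusted p in the authors' deposited table was 0.00506. Taken without added counts, the ratio of Dll4 minus that of Jag1 was -0.72 on the log2 scale (-2.53 to 1.09, a normal interval from the counts). The ratios of these ligands thus did not differ beyond counting error. Dll1 (ENSMUSG00000014773, chromosome 17, 15367354 to 15376872 on the minus strand) gave 8 wild-type and 12 knockout counts, and its log2 ratio was 0.58 (-0.81 to 2.10). Dll3 (ENSMUSG00000003436, chromosome 7, 28293553 to 28302238 on the minus strand), a divergent Delta-like protein that acts within the cell that makes it and does not activate Notch from outside, gave 8 wild-type and 6 knockout counts, and its log2 ratio was -0.37 (-2.20 to 1.32). For Dll1 and Dll3 no difference was detectable at this depth, and the authors' deposited table lists adjusted p-values of 0.419 and 0.671.

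**Figure D3:**
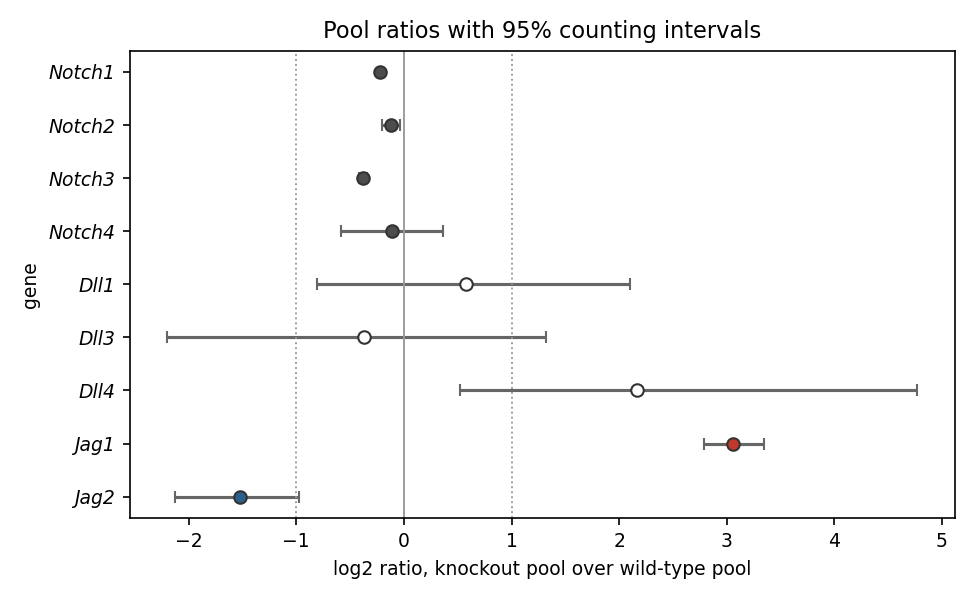
Log2 ratio of the knockout over the wild-type pool for the 9 genes, with exact 95% counting intervals; dotted lines mark 2-fold, and open points have a combined count under 100. The receptors lie between -0.38 and -0.11, Jag1 lies at 3.06 and Jag2 at -1.52, and the interval of Dll4 runs from 0.52 to 4.77.

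The 5 ligands together gave 239 wild-type and 1032 knockout counts, or 2.21 and 9.69 CPM. The knockout pool was 4.38-fold higher for this sum (3.80 to 5.06), a log2 ratio of 2.13. This rests on Jag1, since the other 4 ligands summed to 122 wild-type and 68 knockout counts, a log2 ratio of -0.82 (-1.27 to -0.38). Of these, Jag2 gave 103 and 35. The Delta-like ligands together gave 19 wild-type and 33 knockout counts, a log2 ratio of 0.80 (-0.04 to 1.71). Per kilobase Jag1 gave 49.8% of ligand mRNA with wild-type Utx and 92.3% without, and Jag2 gave 36.7% and 2.8%. Of ligand reads as such, Jag1 had 49.0% (Clopper-Pearson interval 42.5% to 55.5%) and 93.4% (91.7% to 94.8%). The receptor sum exceeded the ligand sum in both pools. Where Utx was wild-type the sums were 73.5 CPM per kilobase for receptors and 0.374 for ligands, and where Utx was deleted 61.9 and 1.68. Without Notch1, whose row holds any reads of the retroviral insert, the receptor sum was 17.0 with wild-type Utx and 13.4 without.

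In order of CPM per kilobase, the knockout pool had Notch1 (48.5), Notch3 (11.2), Notch2 (2.06), Jag1 (1.55), Notch4 (0.0862), Jag2 (0.0472), Dll4 (0.0366), Dll1 (0.0267) and Dll3 (0.0198). From Notch1 to Jag2, each gene differed from the next beyond counting error, and from Jag2 to Dll3 no neighbours did. In the wild-type pool the order was Notch1 (56.5), Notch3 (14.6), Notch2 (2.24), Jag1 (0.186), Jag2 (0.137), Notch4 (0.093), Dll3 (0.026), Dll1 (0.0175) and Dll4 (0.00721). There Jag1 and Jag2 were not apart once length was taken from the transcript with the longest coding sequence, where Jag1 was 1.03 times Jag2 (0.786 to 1.36), and Dll3, Dll1 and Dll4 were not apart either. As a ratio of CPM per kilobase, Jag1 over Notch2 was 0.0829 (0.0682 to 0.0997) with wild-type Utx and 0.753 (0.698 to 0.812) without.

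**Figure D4:**
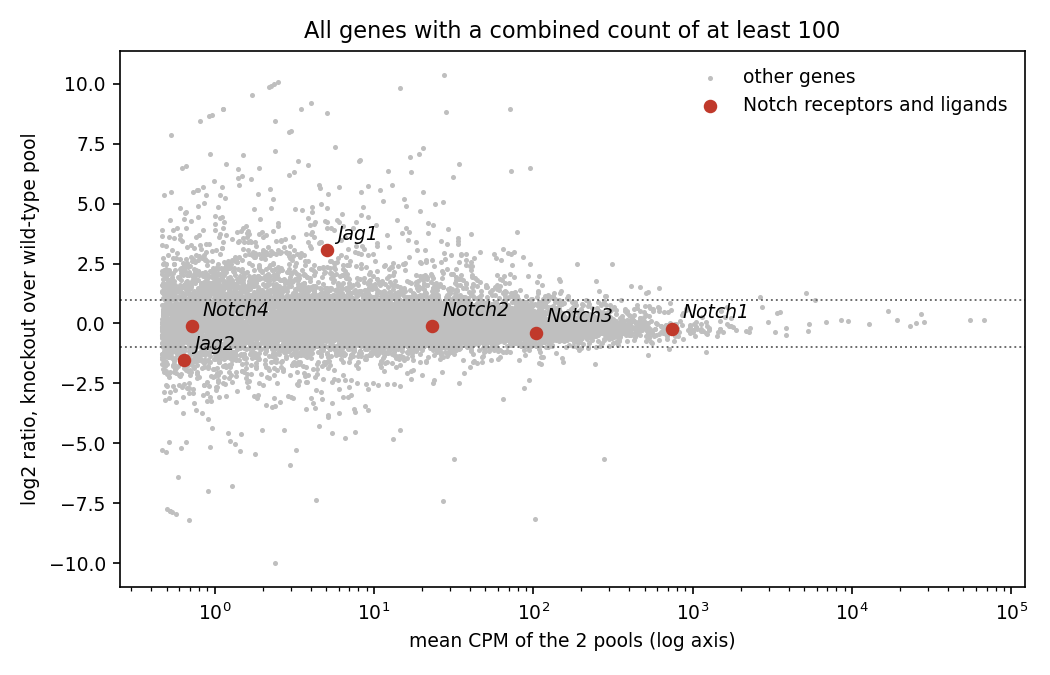
Log2 ratio of the knockout over the wild-type pool against the mean CPM of both pools (log axis) for the 13833 genes with a combined count of at least 100; dotted lines mark 2-fold and the 6 members in this range are named. The receptors sit inside the dense band of genes between the lines, with Jag1 above the upper line and Jag2 below the lower.

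Genes next to the members on the chromosome did not all move with them. Of the 2 nearest protein-coding genes with at least 100 counts on each side of Jag1, 2210009G21Rik, at 9.51 kb, was at 0.67 (0.49 to 0.86) and Mkks, at 190 kb, at -0.13 (-0.22 to -0.04). On the other side, across a stretch of 1140 kb without such a gene, Btbd3 was higher at 1.91 (1.41 to 2.46), and Ism1, an extracellular protein gene at 2561 kb, was higher at 6.79 (5.77 to 8.35) on 708 against 6 counts. The 4 neighbours of Jag2, which were Gpr132, Cdca4, Nudt14 and Brf1, lay between -0.47 and -0.14, far from the -1.52 of Jag2.

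Markers of several other cell types stood higher in the knockout pool too. The design text speaks of sorted populations without naming the gate. Over all genes with enough counts, 11.2% were called higher and 5.36% lower. Of 17 endothelial markers all were detected, 13 had enough counts and 8 were higher, among them Erg (3.19, 2.81 to 3.62), which blood progenitors express as well, Sox18 (2.11), Flt4 (1.87) and Emcn (1.66), while Pecam1 was at 0.22 and Cdh5 at 0.67. Their median was 1.04 and their summed level 70.9 CPM with wild-type Utx and 95.9 without. Of 16 stromal markers 11 had enough counts, 6 were higher and Pdgfrb was lower (-1.48), with a median of 1.35 and sums of 171 and 196 CPM in the same order. The 6 higher stromal markers ran from Col3a1 at 1.32 to the chemokine Cxcl13 at 3.59, while Acta2 (0.78), Tagln (0.49), Col1a1 (0.28) and Col1a2 (-0.37) were neither. Among the higher, Pdgfra reached the minimum through the knockout pool, on 86 against 15 counts. Pdpn and Ccl21a were at 0 in both pools and Bglap at 0 in the knockout pool.

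Macrophage markers were nearly all higher, with 11 of the 12 that had enough counts called higher, a median of 1.61 and sums of 273 against 85.8 CPM; none was at 0. Megakaryocyte markers had 5 of 7 called higher, a median of 1.96 and sums of 26.5 against 9.41 CPM. Erythroid markers had 3 of 10 called higher, a median of 0.77 and sums of 24826.1 against 12329.5 CPM. Granulocyte markers had 2 of 9 called higher, a median of 0.55 and sums of 2459 against 2012 CPM. The erythroid sums exceeded those of the T cell markers below in both pools. The share called higher over all genes was 11.2%, and these lists are short. Of dendritic markers 2 of 7 were higher, Ccr7, which T cells express too, and Siglech, with a list median of -0.68 that was 0.18 over genes with at least 100 counts. For the B cell list none of 5 was higher and Spib (-3.01) and Pax5 (-2.04) were lower, with a median of 0.32 over its members with 20 counts and a mean of -0.25. All T cell markers were present, with sums of 3547 CPM with wild-type Utx and 2934 CPM without, and of 13 the recombinase genes Rag1 (1.60) and Rag2 (1.09) were higher and Thy1 (-1.06) was lower. The part of other cells in the ratio of Jag1 was not tested, and fewer cells of a type cannot be told from less mRNA per cell in these pools.

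**Figure D5:**
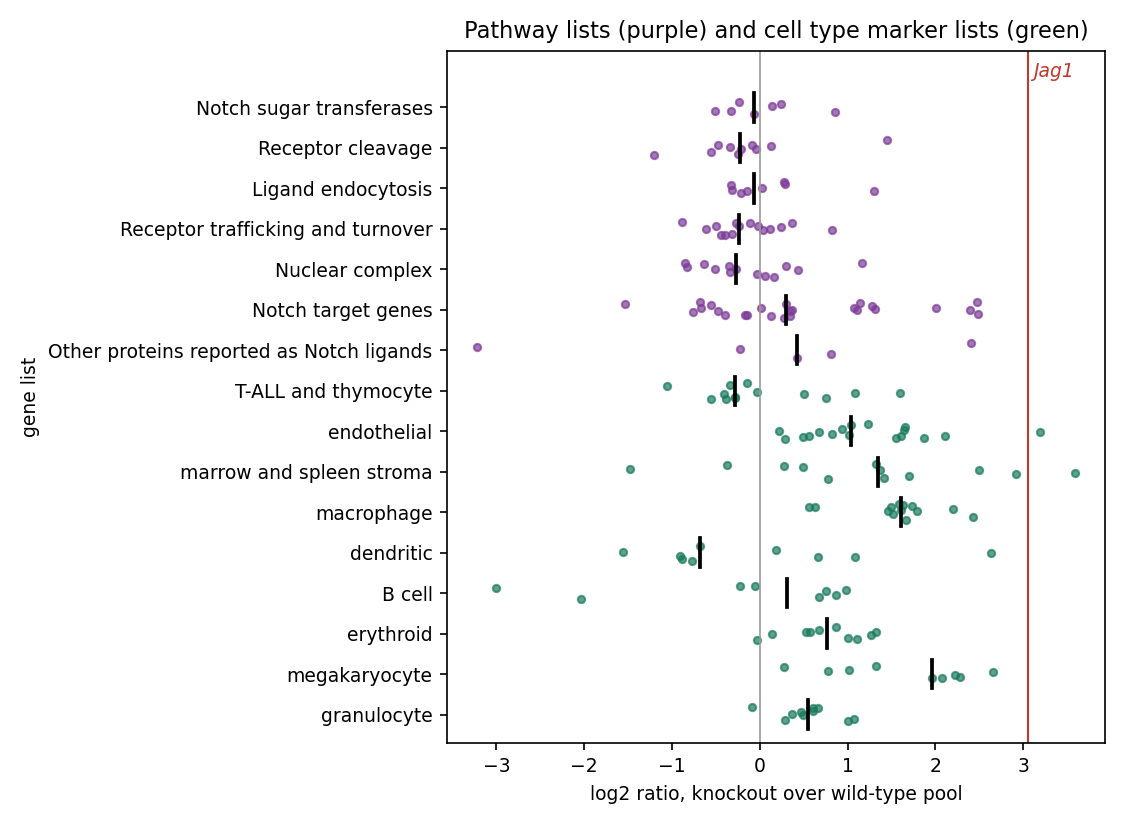
Log2 ratio of the knockout over the wild-type pool for each gene with a combined count of at least 20 in 7 lists of Notch pathway genes (purple) and 9 lists of cell type markers (green); black bars are medians and the red line is Jag1 at 3.06. The first 5 pathway lists have medians between -0.27 and -0.06, of which those of the sugar transferases and of ligand endocytosis turn positive with TMM, while the endothelial, stromal, macrophage and megakaryocyte lists have medians of 1.04 to 1.96.

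The rest of the pathway was read from 7 lists with 89 different genes in the table, of which 79 had at least 100 counts. Among these 12 were higher, 3 lower and 64 neither, so that 19.0% were called beside 16.6% of all genes, and their median was -0.07, the value over all genes. The calls were not spread evenly, since 9 of the higher and 1 of the lower genes were in the list of 25 Notch target genes. The Notch sugar transferases held no called gene of 7. Lfng, a fringe enzyme that favours Delta-like over Jagged ligands, was at 0.86 (0.60 to 1.12), Pofut1 at 0.24, Rfng at -0.51 and Poglut1 at -0.33. Among the genes of receptor cleavage, Aph1b was higher at 1.45 on 103 against 38 counts and Psenen lower at -1.21 on 46 against 109 counts, both gamma-secretase subunits with few reads. Adam10, which makes the outer cut, was at 0.13. Furin, at -0.56, and Aph1a, at -0.48, had the lowest ratios after Psenen.

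On the ligand side, Neurl3, of the Neuralized family of ubiquitin ligases, was higher at 1.30 (0.97 to 1.63) on 267 against 110 counts. Mib1, the ligase that sends ligands into endocytosis, was at -0.32 (-0.37 to -0.27), Epn1 at -0.33, Neurl2 at 0.29 and Dnm2 at 0.28. None of the 15 genes of receptor trafficking and turnover was called. Dtx4 and Ccnc had the highest ratios there, 0.82 and 0.37, and Nedd4l and Fbxw7, which marks intracellular Notch for degradation, had the lowest, -0.89 and -0.61. In the nuclear complex Snw1 was higher at 1.16 (1.14 to 1.19), and 12 of 13 were neither. Rbpj was at -0.27 and the Mastermind genes Maml1, Maml2 and Maml3 at -0.34, 0.44 and 0.06, while Cir1, a corepressor gene, was at -0.83.

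Of other proteins reported as Notch ligands, Dlk1, an imprinted Delta-like homologue that lacks the receptor-binding domain of the canonical ligands, was lower at -3.22 (-4.05 to -2.56) on 18 against 175 counts. Thbs2 was at 0.81 (0.28 to 1.38) and Egfl7, a gene next to Notch1, at -0.23, and 7 of the 10 had under 100 counts, with Cntn6 at 0 in both pools. Target genes of Notch moved in both directions. Of 25, the higher ones were 9, beside 11.2% of all genes with enough counts. They were Il7r (2.49), Hey1 (2.47), Hey2 (2.39), Rhou (2.01), Cdkn1a (1.31), Il2ra (1.28), Fjx1 (1.14), Gata3 (1.11) and Trib2 (1.07). Only Hes5 was called lower (-1.53), on 39 against 115 counts, and Hey2 rested on 116 against 22. The median of the list was 0.30. The other 15 targets were neither, and ran from Hes6 at -0.76 to Tcf7 at 0.37.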

How the data were processed

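Libraries of poly(A)-selected RNA were made with the dUTP method, which marks strand, and 50 bases were read from 1 end, per the labels' protocols. CASAVA, TopHat and mm9 are named without versions per the submitters' processing notes; the annotation, the counter and its strand setting were not given in the sources used here. What the authors deposited is 1 DEGseq table with whole read counts pooled by genotype, log2 fold changes, a z score and p-values with 2 kinds of q-values per gene; the Benjamini-Hochberg q is the adjusted p quoted. Which samples entered each pool is not given. The first value column was taken as knockout, from the order in the table's title, and Kdm6a is lower there. The columns with per-sample values numbered 0.

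Blank counts were read as 0. CPM used the column totals. Intervals were computed with SciPy 1.17.1, scaling factors with edgeR 4.0.16 and DESeq2 1.42.0. Exon lengths are unions over GENCODE M21, matched by Ensembl identifier for 98.4% of the 13833 genes with 100 counts. The rule was tested on simulated Poisson counts of the knockout against the wild-type pool. Of 34 genes with a combined count from 100 and a log2 change of 1.5, 97.1% were recovered. Of 13650 unchanged genes, 0 were called. The simulated counts had no spread between tumours, tissues or runs. They therefore bear on counting error only, and cannot tell how often the rule calls genes that Utx does not affect. Named genes were the 9 members, Kdm6a, the called genes of each pathway list with its 2 highest and 2 lowest of at least 100 counts, and called marker genes; others, such as neighbours, sex markers and well-known pathway genes, were named after their values were seen. The members, lists and rules were chosen with earlier results of these data known. A few pathway genes that this rule names are not reported here. A count of 0 allows up to 3 counts, or 0.0278 CPM with wild-type Utx and 0.0282 without.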

Additional observations from a re-analysis of the deposited data

How the results depend on the processing

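Jag1 stayed called higher, Jag2 called lower and the 4 receptors uncalled under each other scaling (TMM, median of ratios, upper quartile, and depths without Notch1 reads or without mitochondrial, erythroid and T cell receptor genes) and with a pseudocount of 5. Scaling moved all log2 ratios alike, by at most 0.09, and the ratio of the receptor sum was -0.16 with TMM. With a minimum combined count of 500, no member was called lower (0), since Jag2 was no longer tested; genes called higher and lower were then 840 and 372, compared with 1551 and 741, and 2330 and 1495 with a minimum of 20. A fold minimum of 1.5 gave 2617 and 2037, and no fold minimum gave 5119 and 6466, with 4 members lower (Notch1, Notch2, Notch3 and Jag2). The share of Notch1 in receptor mRNA was 85.8% and 84.9% of raw reads in the knockout and wild-type pools, and 84.3% and 83.2% by the length of the transcript with the longest coding sequence, an alternative added after seeing the data; that length raised Notch1 over Notch3 to 6.42 and 5.75 times. Without Notch1, Notch3 made up 83.9% and 86.2% of the receptors. Of 16 gene lists, 6 changed the sign of their median with the mean, TMM or a higher minimum. No paired analysis was possible because each genotype has a single pooled column, so leaving out a replicate could not be done either. Depth limits the Delta-like ligands, whose combined counts were 14 to 20.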
